A study of Mus musculus with 30 samples.

Results

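Spared nerve injury (SNI) is a rodent model of neuropathic pain in which some branches of the sciatic nerve are cut and another is left intact. Its day 7 group was taken by the sample titles and comprised 2 of the 30 libraries of the study. They were set against the 9 libraries titled as controls. All mice were C57BL/6J. The SNI mice were sampled 7 days post injury. The mice of 2 other injury groups were sampled at the same time, after chronic constriction injury (CCI, 2 libraries) or sciatic nerve transection (SNT, 2 libraries). The controls were uninjured and comprised 2 naive libraries (no treatment) and 7 saline libraries, 4 from the fixed and 3 from the escalating dosing regimen. There was no sham-operated group, so the effect of surgery itself and that of the nerve lesion cannot be told apart. Cells were taken from the caudal lumbar cord by magnetic CD11b selection, and RNA was measured as FPKM (fragments per kilobase, normalised to library size). The labels do not say that libraries came from separate animals, so p-values measure the spread between libraries.

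Microglia are the resident macrophages of the spinal cord, and injury of a peripheral nerve is known to activate those around the central endings of the damaged sensory fibres. Among the pathways described in activated microglia is the type I interferon response, in which secreted interferon acts through its receptor to switch on a set of antiviral genes through a promoter motif. Other known responses are purinergic signalling, complement production and, in some injury models, proliferation.

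Comparing day 7 SNI with the controls, no gene passed the threshold. Of the gene lists examined for cellular processes, that of type I interferon genes had the largest median difference, which was 0.61 on the log2(FPKM + 1) scale against all controls, 0.51 against naive and 0.61 against saline libraries. Of 11759 genes tested, 0 were called at an adjusted p under 0.05 (0% called, limma), and 478 had an unadjusted p under 0.05, of which 283 were higher (2.41%) and 195 lower (1.66%) in SNI libraries. The lowest adjusted p was 0.543, that of the complement gene Cfb (limma). Members of gene groups are therefore given below by their values and by whether the SNI libraries lay outside the controls, and no single gene is described as changed against all controls. Both SNI libraries lay above all 9 controls for 179 genes (1.52%) and below all of them for 184 genes (1.56%). The median difference over all genes was 0.01 on the log2(FPKM + 1) scale, on which every difference below is given and which understates the change of low genes.

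The control libraries were not of one kind, and this touches every comparison with them. SNI library 1 was closest to naive library 2 among all other libraries (r = 0.983 over the genes tested, with no test), and SNI library 2 was closest to naive library 1 (r = 0.971). The SNI libraries correlated with each other at 0.958. Between 9760 and 9878 genes reached 1 FPKM in the SNI libraries, 9536 and 10068 in the naive libraries and 9215 to 9987 in the saline libraries. A relative floor of detection, which falls as depth rises, was 0.128 and 0.211 FPKM × kb in SNI libraries, 0.269 and 0.0978 in naive libraries, and 0.256 to 0.618 in saline libraries. Cst3, the secreted protease inhibitor cystatin C, illustrates the split with 14299 and 20827 FPKM in SNI libraries and 17341 and 16975 FPKM in naive libraries, against 40841 to 65263 FPKM in saline libraries. The SNI and naive values overlapped there, and all 4 lay below every saline value. The labels do not say which libraries were prepared or sequenced together, so preparation and control kind cannot be told apart, and the same holds for the differences from saline and from SNT. The part of depth and of the saline libraries in the results below was not tested beyond giving values against both kinds of control for many genes and lists.

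The defining markers of the selected cells were present. Itgam, which encodes CD11b, stood at 384 and 577 FPKM in SNI libraries, 390.2 and 353 FPKM in naive libraries and 98.8 to 380.2 FPKM in saline libraries. All 10 microglial marker genes were tested, and their mean log2(FPKM + 1) was 9.18 and 9.64 in SNI libraries, 9.38 and 9.33 in naive libraries and 9.23 to 9.65 in saline libraries, so the groups overlapped. CD11b is also carried by neutrophils and monocytes. All 13 neutrophil markers were tested and summed to 6087 and 9558 FPKM in SNI libraries, 8867 and 5802 FPKM in naive libraries and up to 63336 FPKM among the controls. S100a8, a defining neutrophil gene, was far from 0, with 1907 and 2636 FPKM in SNI libraries, 3409 and 1642 FPKM in naive libraries and 2927 to 30884 FPKM in saline libraries. The median difference of the neutrophil list was -0.76 against all controls and 0.35 against naive libraries. In bulk libraries such as these, fewer cells of a type and less RNA per cell cannot be told apart.

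**Figure D1:**
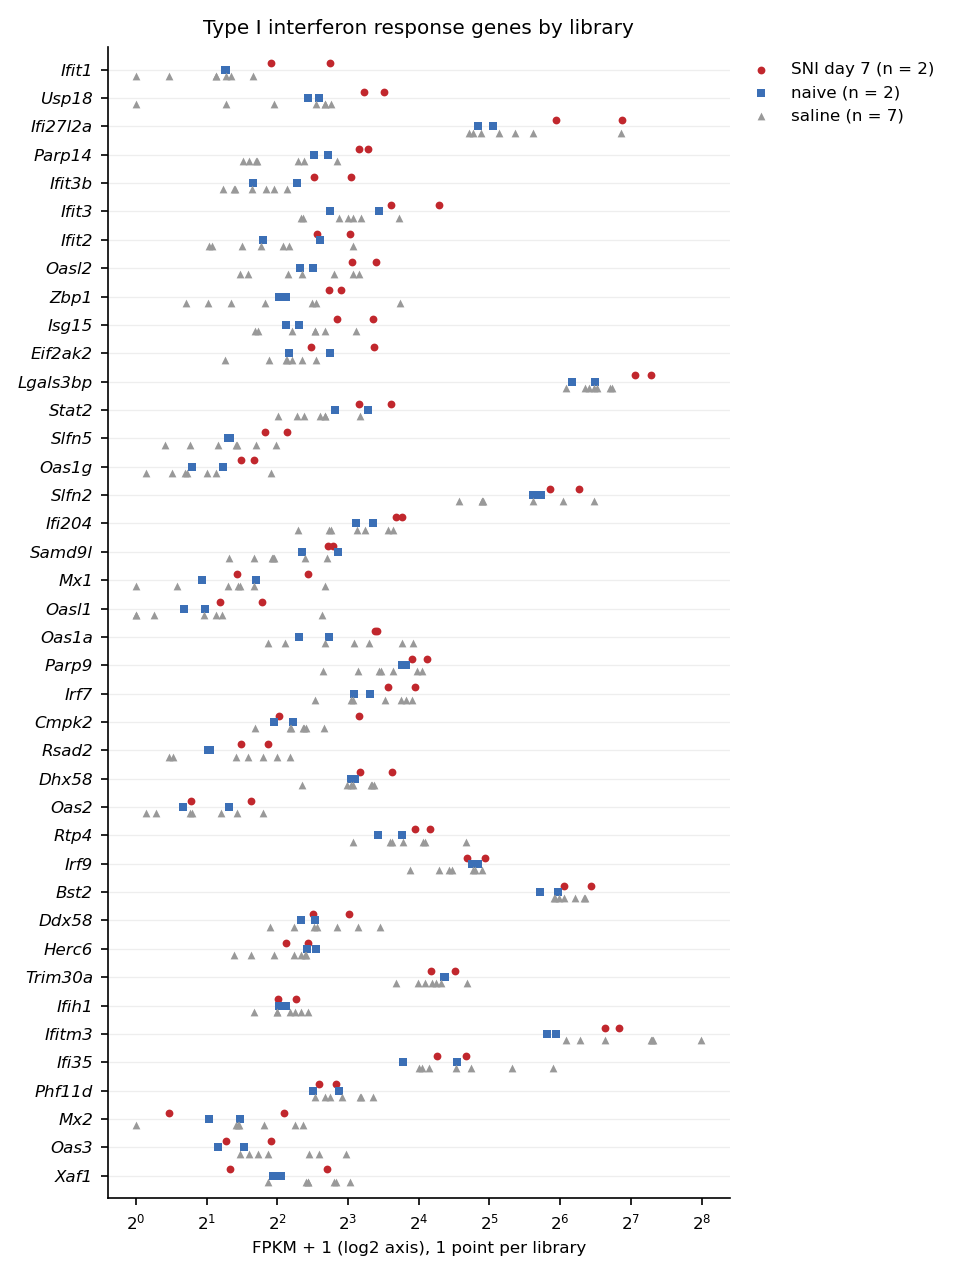
FPKM + 1 on a log2 axis for 40 of the 41 tested genes of the type I interferon list, ordered from the largest to the smallest SNI minus control difference, with 1 point per library (red, SNI; blue, naive; grey, saline). For 6 of these genes both SNI points lie right of all 9 control points, and for no gene do both lie left of them.

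The type I interferon list showed the largest median difference of the 23 process lists in this comparison. Of its 43 genes 41 were tested, and 35 of them had a difference above 0, where 51.0% of all genes did. The median difference was 0.61 against all 9 controls, 0.51 against the naive libraries and 0.61 against the saline libraries, beside medians of 0.01, 0.00 and 0.01 over all genes. Both SNI libraries lay above all 9 controls for 7 members (17.1%, where 1.52% of all genes did) and below all of them for 0. Against the naive libraries alone, 39 of 41 differences were above 0, where 5776 of all 11759 genes had one above 0. Both SNI libraries lay above both naive libraries for 24 members (58.5%), against 8.81% of all genes. None of the 41 was called, and 6 had an unadjusted p under 0.05, all 6 of them higher (2.41% of all genes were).

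Ifit1, an RNA-binding antiviral effector and a standard marker of the interferon response, had 2.77 and 5.69 FPKM in SNI libraries and 1.39 and 1.42 FPKM in naive libraries, against a lowest, median and highest saline value of 0, 1.20 and 2.15 FPKM. Both SNI libraries were above every control, and SNI library 2 was the higher of them. The day 7 CCI libraries, at 2.36 and 2.60 FPKM, were also above every control. The SNI minus control difference was 1.27 ± 0.40 (SE; unadjusted p = 0.00459, adjusted p = 0.999, limma). Ifit3b, of the same family, had 4.72 and 7.27 FPKM in SNI libraries and 3.86 and 2.14 FPKM in naive libraries, against a lowest and median saline value of 1.34 and 2.11 FPKM and a highest of 3.40 FPKM, a difference of 1.06 ± 0.37 (SE). The groups did not overlap for Ifit3b either, though its reads may be shared with the near-identical Ifit3.

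Usp18, the protease that removes the ubiquitin-like protein ISG15 and dampens interferon receptor signalling, had 8.33 and 10.4 FPKM in SNI libraries and 5.03 and 4.43 FPKM in naive libraries. Its lowest, median and highest saline values were 0, 4.87 and 5.77 FPKM, all under the SNI values, and the difference was 1.27 ± 0.59 (SE). The day 7 CCI values (6.05 and 7.35 FPKM) and SNT values (8.21 and 6.64 FPKM) of Usp18 were also above all 9 controls. Parp14, a mono-ADP-ribosyltransferase induced by interferon, had 7.95 and 8.71 FPKM in SNI libraries and 4.73 and 5.58 FPKM in naive libraries, against 1.86, 2.26 and 6.19 FPKM as lowest, median and highest saline value. The SNI values were again the highest, and the Parp14 difference was 1.08 ± 0.39 (SE). The day 7 CCI values of Parp14 were 5.33 and 7.94 FPKM, and only CCI library 2 was above all 9 controls.

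Ifi204, a cytosolic DNA sensor of the p200 family, had 12.6 and 11.8 FPKM in SNI libraries, 7.62 and 9.22 FPKM in naive libraries and 3.90 to 11.5 FPKM in saline libraries. Lgals3bp, a secreted glycoprotein that binds galectin-3, was the most abundant of the 7, with 133 and 154 FPKM in SNI libraries, 88.8 and 70.9 FPKM in naive libraries and 66.4 to 105 FPKM in saline libraries. The SNI libraries overlapped the controls for neither gene, and the differences were 0.63 ± 0.46 for Ifi204 and 0.73 ± 0.32 (SE) for Lgals3bp.

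Not every member followed. Ifi27l2a had 116 and 60.2 FPKM in SNI libraries and 32.0 and 27.5 FPKM in naive libraries, and although its saline median was 34.0 FPKM, one saline library reached 115 FPKM, so the groups overlapped. Ifitm3, which restricts viral entry, had 98.6 and 113 FPKM in SNI libraries, above the 55.4 and 60.7 FPKM of naive libraries, but a saline median of 155 FPKM. Mx2, an interferon-induced gene annotated as a polymorphic pseudogene, differed between the SNI libraries themselves, at 3.26 and 0.385 FPKM, and spanned the naive values of 1.04 and 1.78 FPKM. Xaf1 did so too, with 5.52 and 1.51 FPKM in SNI libraries and 3.17 and 2.84 FPKM in naive libraries.

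The known binding motif for the interferon-activated factor complex was looked up in the promoters of the list's tested members, whatever their SNI values. The list was made of genes known to respond to interferon, so a high share follows from its making and says nothing about SNI. Windows of 300 bases, from 250 before to 50 after the start, came from RefSeq (GRCm38.p6), and 29 of the 41 tested members had one. The core of this interferon-stimulated response element, read as GAAA, any 2 bases and GAAA again, or on the other strand TTTC, any 2 bases and TTTC, with overlapping matches counted, was present in 16 of those 29 genes (55.2%). It was present in 353 of the 9031 tested genes with a window (3.91%) and in 1079 of all 27025 genes of the table (3.99%). A window each is shown for 3 members above all 9 controls, in gene orientation and with the motif in capitals: Ifit1 on chr19:34640639-34640938 (plus strand), Ifit3b on chr19:34607707-34608006 (plus strand) and Lgals3bp on chr11:118401910-118402209 (minus strand).
Ifit1: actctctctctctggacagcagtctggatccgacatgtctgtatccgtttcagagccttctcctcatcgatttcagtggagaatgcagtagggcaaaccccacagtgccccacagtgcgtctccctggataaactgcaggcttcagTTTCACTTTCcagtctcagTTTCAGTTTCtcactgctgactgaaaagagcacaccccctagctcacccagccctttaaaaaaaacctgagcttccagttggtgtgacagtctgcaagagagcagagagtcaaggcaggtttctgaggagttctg
Ifit3b: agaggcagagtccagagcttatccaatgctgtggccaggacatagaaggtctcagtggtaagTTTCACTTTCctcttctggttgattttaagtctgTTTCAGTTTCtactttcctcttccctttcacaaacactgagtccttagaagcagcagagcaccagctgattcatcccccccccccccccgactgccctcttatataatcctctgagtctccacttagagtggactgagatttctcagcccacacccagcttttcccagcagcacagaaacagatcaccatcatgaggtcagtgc
Lgals3bp: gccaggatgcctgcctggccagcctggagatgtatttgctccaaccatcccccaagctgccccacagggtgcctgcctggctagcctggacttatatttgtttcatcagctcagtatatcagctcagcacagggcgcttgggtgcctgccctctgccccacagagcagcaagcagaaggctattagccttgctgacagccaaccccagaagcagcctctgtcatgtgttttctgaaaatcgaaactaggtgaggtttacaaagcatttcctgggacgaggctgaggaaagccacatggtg
Ifit1 and Ifit3b each held 2 matches upstream of the start, and the Lgals3bp window held 0. A match is a string of letters and was not read as a binding site.

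The list of interferon gamma targets and MHC class I presentation, which displays intracellular peptides to T cells, lay higher by a smaller margin. Of 20 tested members 15 had a difference above 0, the median was 0.34 against all controls, 0.29 against naive and 0.37 against saline libraries, and 4 members lay above all 9 controls (20.0%, where 1.52% of all genes did). Both SNI libraries lay above both naive libraries for 10 of the 20 members, against 8.81% of all genes. H2-K1, a classical class I heavy chain, had 272 and 370.0 FPKM in SNI libraries, 172 and 169.8 FPKM in naive libraries and 159 to 237 FPKM in saline libraries, a difference of 0.80 ± 0.29 (SE). It lies on chr17:33996017-34000347 (minus strand, GENCODE vM21, GRCm38). H2-D1, the other classical heavy chain tested, had 918 and 1493 FPKM in SNI libraries and 800.0 and 736 FPKM in naive libraries, against 393 to 698 FPKM in saline libraries, a difference of 1.04 ± 0.36 (SE). The groups did not overlap for either gene, but class I genes are near-identical and how reads were divided between them is not known.

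Gbp2, an interferon-induced GTPase, had 6.71 and 9.64 FPKM in SNI libraries, 5.77 and 4.93 FPKM in naive libraries and 1.85 to 5.47 FPKM in saline libraries, and Irgm1, another such GTPase, 20.8 and 28.3 FPKM in SNI libraries, 20.4 and 19.6 FPKM in naive libraries and 9.90 to 18.5 FPKM in saline libraries. SNI library 1 exceeded the higher naive value of Irgm1 by little. Both day 7 CCI libraries were also above all 9 controls for Gbp2, at 7.75 and 8.93 FPKM. For H2-K1 and H2-D1 only CCI library 2 was. B2m, the invariant light chain of class I, did not share the position of the heavy chains, at 1057 and 1264 FPKM in SNI libraries, 1129 and 852 FPKM in naive libraries and 2869.7 to 4609 FPKM in saline libraries. The difference of B2m was -1.31 ± 0.64 (SE) against all controls and 0.24 against naive libraries, so its sign depended on which controls were used. Among 14 interferon receptor and signalling genes the median difference was 0.16 against all controls and 0.06 against naive libraries, and 0 lay outside the 9 controls.

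**Figure D2:**
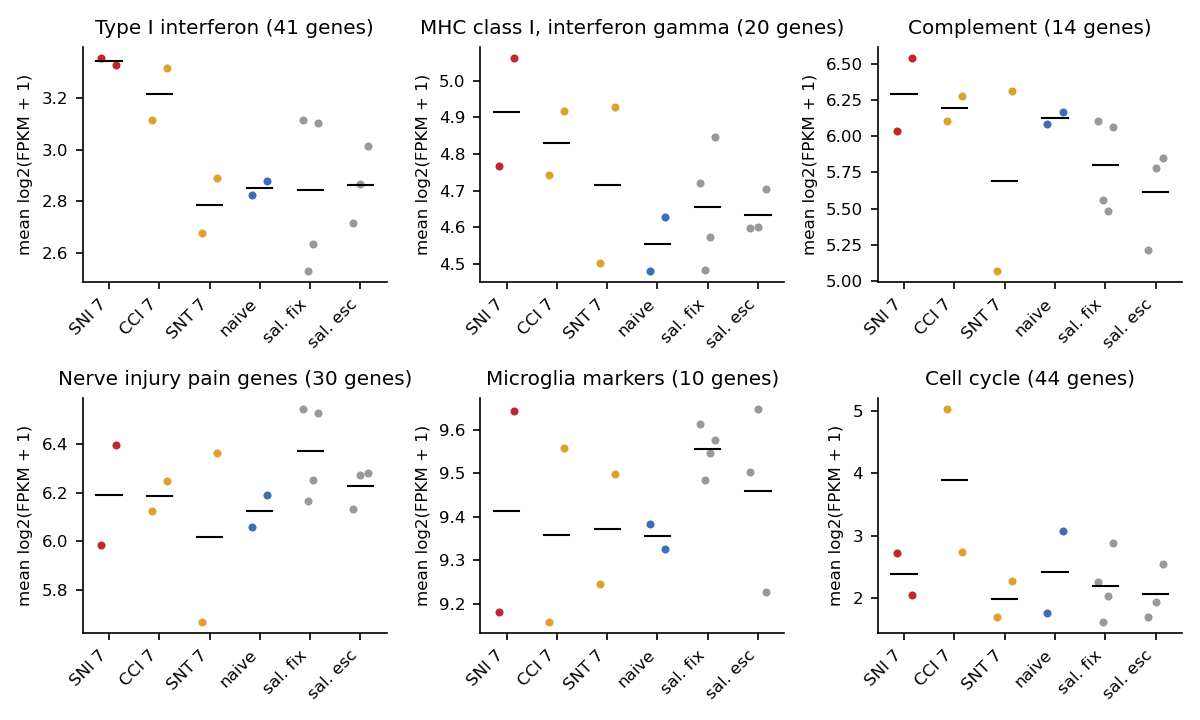
Mean log2(FPKM + 1) over the tested genes of 6 lists in each library, by group (red, SNI; yellow, CCI and SNT at day 7; blue, naive; grey, saline of the fixed and escalating regimens), with the group mean as a line. The type I interferon level of both SNI libraries (3.36 and 3.33) is above all 9 controls, as is that of both CCI libraries, CCI library 1 barely. The microglia and pain gene levels of SNI overlap the controls.

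Summed into 1 level per library (mean log2(FPKM + 1) over members), the type I interferon list stood at 3.36 and 3.33 in SNI libraries, 2.82 and 2.88 in naive libraries and 2.53 to 3.12 in saline libraries. At day 7 it stood at 3.12 and 3.32 in CCI libraries and at 2.68 and 2.89 in SNT libraries. The SNI libraries had the highest and second highest values of these, with CCI library 2 next to them. Set against SNT, 21 of 41 members were higher in both SNI than in both SNT libraries (51.2%, against 6.05% of all genes), with a median difference of 0.59. Without SNT library 1 or 2 that median was 0.44 or 0.58, where the median of all genes was -0.28 or 0.29. Set against CCI, the median was 0.13 and 5 members were above both CCI libraries (12.2%, against 4.82% of all genes), but without CCI library 1 the median was -0.04. Oasl2, an oligoadenylate synthetase-like protein, had 7.31 and 9.51 FPKM in SNI libraries, 6.28 and 7.92 FPKM in CCI libraries and 0.318 and 4.18 FPKM in SNT libraries. The SNI minus SNT difference of Oasl2 was 1.84 ± 0.61 (SE; adjusted p = 0.861, limma), and no member was called in either comparison. The difference of Oasl2 was 0.85 without SNT library 1, and 2.83 (adjusted p = 0.0154, limma) without SNT library 2.

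Cfb, complement factor B of the alternative pathway, had the lowest p of all genes. Its levels were 3.77 and 4.21 FPKM in SNI libraries and 0.916 and 1.01 FPKM in naive libraries, and the lowest, median and highest saline values were 0, 0 and 1.07 FPKM. The SNI libraries were above every control, although Cfb was listed at 0 in 4 of the 11 libraries. The difference was 1.88 ± 0.37 (SE; unadjusted p = 4.62e-05, adjusted p = 0.543, limma), and 1.34 ± 0.46 (SE) against naive libraries alone. Cfb also differed between the CCI libraries, at 0.633 and 3.37 FPKM. The gene lies on chr17:34856374-34862518 (minus strand, GENCODE vM21, GRCm38) inside the same-strand readthrough locus Gm20547, so how reads were divided between them is uncertain.

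The rest of the complement list was less clear. Of 14 tested members 10 had a difference above 0, with a median of 0.28 against all controls and 0.17 against naive libraries, and Cfb was the only one outside the 9 controls (7.14%, where 1.52% of all genes lay above). C4b, of the classical and lectin pathways, had 17.4 and 31.7 FPKM in SNI libraries and 19.1 and 13.5 FPKM in naive libraries, against 0, 0.533 and 2.93 FPKM as lowest, median and highest saline value. It thus overlapped the naive libraries and stood apart from saline, and its reads may be shared with the near-identical C4a. C1qa, a subunit of the initiating C1q complex, had 1593 and 1846 FPKM in SNI libraries, 1523 and 1449 FPKM in naive libraries and 2079.6 to 4744 FPKM in saline libraries, a difference of -0.63 ± 0.39 (SE) that was 0.21 against naive libraries.

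**Figure D3:**
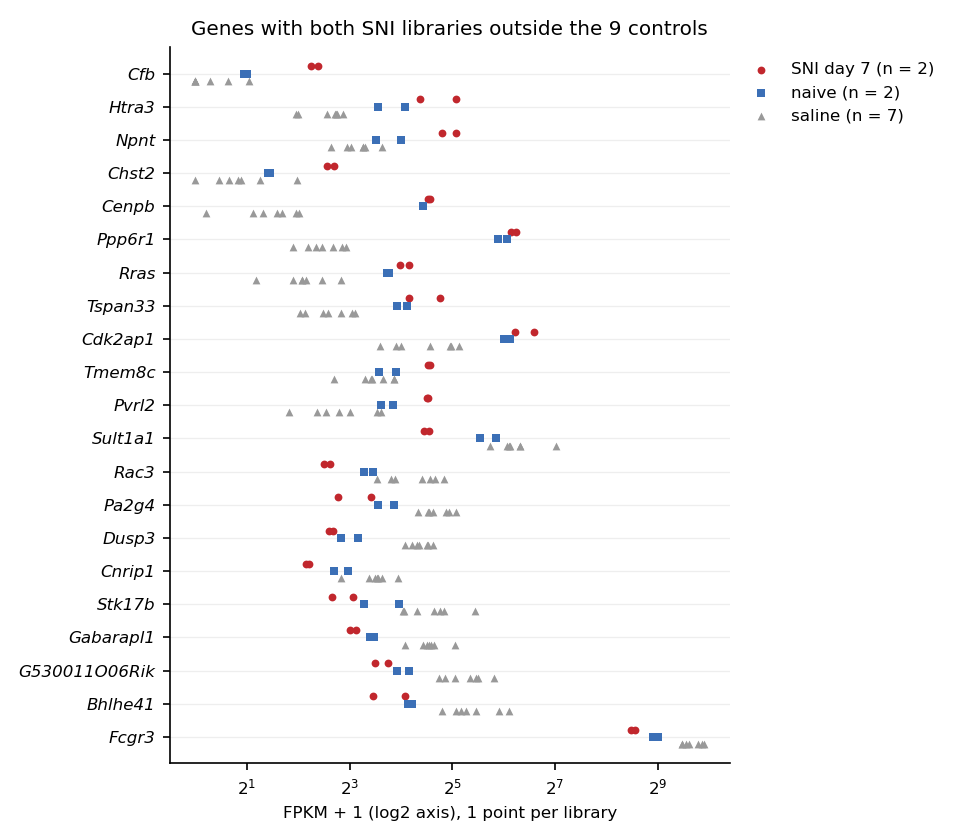
FPKM + 1 on a log2 axis for Cfb and the 20 genes that the naming rule selected for lying outside the 9 controls, with 1 point per library (red, SNI; blue, naive; grey, saline). For genes such as Cenpb and Ppp6r1 the blue points sit beside the red ones and far from the grey ones, while for Htra3 they lie between them and for Npnt, Chst2 and Sult1a1 at least 1 blue point lies within the grey ones.

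The naming rule took genes averaging 5 FPKM or more in the SNI or control libraries and without overlap between them, and from these the 10 lowest p-values in each direction. These genes are given in an order chosen after their values were seen. Htra3, a secreted serine protease, had 32.8 and 19.8 FPKM in SNI libraries, 10.7 and 15.9 FPKM in naive libraries and 2.87 to 6.31 FPKM in saline libraries, a difference of 1.92 ± 0.50 (SE). Npnt, the matrix protein nephronectin, had 27.0 and 32.6 FPKM in SNI libraries, 15.1 and 10.4 FPKM in naive libraries and 5.19 to 11.4 FPKM in saline libraries, a difference of 1.65 ± 0.48 (SE). Chst2, a Golgi sulfotransferase acting on sugar chains, had 4.90 and 5.46 FPKM in SNI libraries, 1.65 and 1.74 FPKM in naive libraries and 0 to 2.94 FPKM in saline libraries, a difference of 1.64 ± 0.49 (SE). Against the naive libraries alone these differences were 0.91 ± 0.60 for Htra3, 1.18 ± 0.70 for Npnt and 1.20 ± 0.63 (SE) for Chst2. The CCI libraries of day 7 had 38.5 and 39.8 FPKM for Htra3, 20.6 and 42.2 FPKM for Npnt and 1.54 and 5.93 FPKM for Chst2. The rule also named Tmem8c and Pvrl2 (nectin-2, an adhesion molecule), with 21.98 and 22.8 FPKM for Tmem8c in SNI libraries, 14.1 and 10.9 FPKM in naive libraries and at most 13.7 FPKM in saline libraries. Pvrl2 had 22.2 and 21.8 FPKM in SNI libraries, 11.2 and 13.3 FPKM in naive libraries and at most 11.3 FPKM in saline libraries. The CCI values were 12.3 and 30.8 FPKM for Tmem8c and 16.8 and 28.5 FPKM for Pvrl2. Htra3 is on chr5:35652023-35679782 (minus strand), Npnt on chr3:132881745-132950291 (minus strand) and Chst2 on chr9:95399292-95406722 (minus strand; GENCODE vM21, GRCm38).

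The genes below all controls included Sult1a1, a phenol sulfotransferase, with 22.3 and 20.9 FPKM in SNI libraries, 45.7 and 56.9 FPKM in naive libraries and 52.6, 68.5 and 129 FPKM as lowest, median and highest saline value. Its difference was -1.62 ± 0.40 (SE; unadjusted p = 0.000497, adjusted p = 0.999, limma), and -1.20 ± 0.55 (SE) against naive libraries. The gene lies on chr7:126672865-126676432 (minus strand, GENCODE vM21, GRCm38). Rac3, a small GTPase, had 5.16 and 4.67 FPKM in SNI libraries, 8.69 and 9.99 FPKM in naive libraries and 10.6 to 27.8 FPKM in saline libraries, a difference of -1.49 ± 0.39 (SE). Cnrip1, which binds the cannabinoid receptor CB1, had 3.43 and 3.63 FPKM in SNI libraries, 6.83 and 5.45 FPKM in naive libraries and 6.17 to 14.4 FPKM in saline libraries, a difference of -1.15 ± 0.34 (SE). Fcgr3, an activating Fc receptor for IgG, was the most abundant of the 10, with 354 and 375 FPKM in SNI libraries, 480.4 and 512 FPKM in naive libraries and 709 to 959 FPKM in saline libraries, a difference of -0.997 ± 0.32 (SE). For these 4 genes the naive values lay between those of the SNI libraries and most of the saline libraries. The CCI libraries of day 7 had 15.8 and 21.3 FPKM for Sult1a1 and 5.09 and 6.84 FPKM for Rac3. They had 4.40 and 5.34 FPKM for Cnrip1 and 280 and 369 FPKM for Fcgr3.

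Ppp6r1, a regulatory subunit of protein phosphatase 6, had 69.3 and 74.9 FPKM in SNI libraries and 58.0 and 65.8 FPKM in naive libraries, against 2.75 to 6.58 FPKM in saline libraries. Cenpb, a centromere protein, had 22.1 and 22.6 FPKM in SNI libraries and 20.5 and 20.7 FPKM in naive libraries, against 0.147 to 3.02 FPKM in saline libraries. The differences were 2.93 ± 0.93 (SE) for Ppp6r1 and 2.46 ± 0.76 (SE) for Cenpb against all controls, but 0.22 and 0.11 against naive libraries. Dusp3, a phosphatase of the dual-specificity family, had 5.44 and 5.099 FPKM in SNI libraries, 6.09 and 7.97 FPKM in naive libraries and 16.0 to 23.6 FPKM in saline libraries. Against naive libraries the differences of Rras, Tspan33 and Cdk2ap1, which were 1.61, 1.55 and 1.60 against all controls, were 0.33, 0.44 and 0.34. Those of Pa2g4, Stk17b, Gabarapl1, G530011O06Rik and Bhlhe41, which lay between -1.51 and -1.24 against all controls, were -0.76 to -0.38. Cenpb overlaps Spef1 on the same strand, and Usp18, Cnrip1 and Dusp3 each overlap a gene on the opposite strand, so their reads may be shared with those genes.

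Restricting the controls to the 7 saline libraries gave 44 called genes (0.374% of those tested, adjusted p under 0.05, limma), 25 higher (0.213%) and 19 lower (0.162%) in SNI libraries. For 43 of those 44 genes both naive libraries lay on the SNI side of all 7 saline libraries, and the exception was Cfb. How many of all tested genes had naive libraries outside the saline range was not counted, so the 43 have no background share. The SNI libraries lay beyond both naive libraries for 11 of the 44, 6 of them higher and 5 lower. Of all genes, 8.81% lay above and 13.8% below both naive libraries. Lars2, a mitochondrial leucyl-tRNA synthetase, shows the pattern with 3367 and 3104 FPKM in SNI libraries and 3202 and 2163 FPKM in naive libraries, against 26.1 to 278 FPKM in saline libraries. Sod1, the copper and zinc superoxide dismutase, had 29.97 and 21.9 FPKM in SNI libraries and 18.3 and 18.3 FPKM in naive libraries, against 144 to 220.1 FPKM in saline libraries. Against the 2 naive libraries alone 0 genes were called (0%), with 14 at an unadjusted p under 0.05 (limma). Both SNI libraries lay above both naive libraries for 1036 genes (8.81%) and below both for 1622 genes (13.8%).

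**Figure D4:**
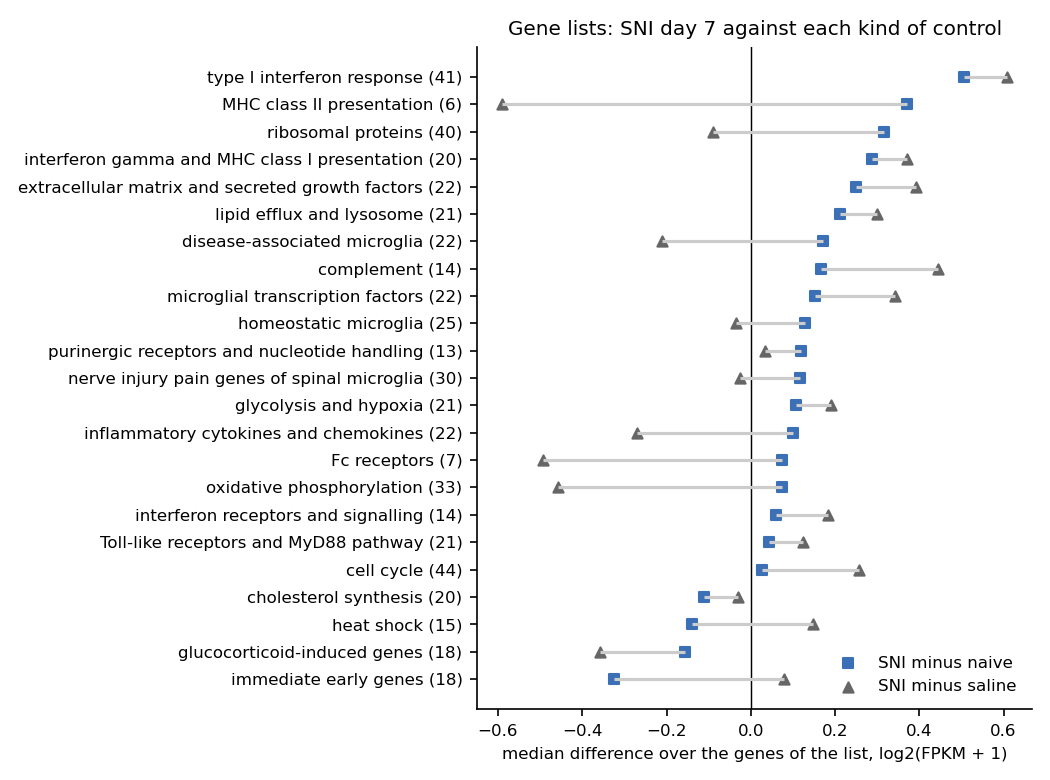
Median SNI minus naive (blue squares) and SNI minus saline (grey triangles) difference on the log2(FPKM + 1) scale over the tested genes of each of the 23 process lists, with the number of genes in brackets. The type I interferon list lies right of 0 for both kinds of control (0.51 and 0.61), whereas MHC class II, Fc receptor and oxidative phosphorylation lists lie on opposite sides.

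The genes best known from spinal microglia after nerve injury had a median near that of all genes against the 9 controls. Of 30 tested pain-related members 15 had a difference above 0, the median was -0.02, and 0 were above and 1 (Tnf) was below all 9 controls (1.56% of all genes lay below). Against naive libraries the median was 0.12, with 21 of 30 differences above 0 (5776 of all 11759 genes). Both SNI libraries lay above both naive libraries for 5 members (16.7%, against 8.81% of all genes) and below both for 1 (3.33%, against 13.8%). P2rx4, the ATP-gated channel linked to touch hypersensitivity after nerve injury, had 37.7 and 50.5 FPKM in SNI libraries, 35.7 and 43.9 FPKM in naive libraries and 21.0 to 32.8 FPKM in saline libraries. P2rx7, the ATP-gated channel linked to interleukin-1 release, had 35.6 and 61.5 FPKM in SNI libraries, 38.5 and 41.3 FPKM in naive libraries and 18.7 to 36.4 FPKM in saline libraries. Both overlapped the naive libraries, with differences of 0.62 ± 0.37 for P2rx4 and 0.68 ± 0.46 (SE) for P2rx7 against all controls.

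Of 22 tested inflammatory cytokine and chemokine genes 9 had a difference above 0, with a median of -0.22 against all controls and 0.10 against naive libraries. Both SNI libraries lay above both naive libraries for 6 of them (27.3%, against 8.81% of all genes) and below both for 3 (13.6%, near the 13.8% of all genes). Tnf had 1.25 and 0.451 FPKM in SNI libraries, 1.42 and 1.47 FPKM in naive libraries and 1.30 to 7.07 FPKM in saline libraries, a difference of -0.96 ± 0.44 (SE). Il6 had 0.316 and 1.71 FPKM in SNI libraries, 1.68 and 1.46 FPKM in naive libraries and 2.81 to 7.41 FPKM in saline libraries, and Il1b had 2.84 and 3.37 FPKM in SNI libraries, 1.21 and 2.32 FPKM in naive libraries and 3.76 to 89.9 FPKM in saline libraries. Of these 3 genes, only Tnf had both SNI libraries below all 9 controls. Tgfb1, an anti-inflammatory growth factor, had 83.7 and 80.9 FPKM in SNI libraries and 74.9 and 72.8 FPKM in naive libraries, against 2.71 to 16.6 FPKM in saline libraries, so its difference of 2.39 ± 0.99 (SE) shrank to 0.15 against naive libraries.

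Among purinergic genes the adenosine A1 receptor Adora1 was the 1 member of 13 above all 9 controls (7.69%, where 1.52% of all genes were). It had 4.69 and 4.65 FPKM in SNI libraries, 2.57 and 2.22 FPKM in naive libraries and 0 to 2.75 FPKM in saline libraries, a difference of 1.58 ± 0.53 (SE). The SNI values were close to each other and clear of the controls, although Adora1 overlaps Mybph on the other strand. The day 7 CCI values of Adora1, 4.04 and 7.51 FPKM, were also above all 9 controls. Of 21 Toll-like receptor pathway genes 15 had a difference above 0, with a median of 0.13 against all controls and 0.04 against naive libraries, and 0 lay outside the controls. Tlr9, the receptor for unmethylated DNA, had 2.73 and 4.03 FPKM in SNI libraries, 2.96 and 3.43 FPKM in naive libraries and 12.6 to 22.6 FPKM in saline libraries.

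Against all controls, genes of microglial state gave medians near 0, whose sign for the homeostatic, disease-associated and pain lists turned under rescaling to TPM. Over 25 homeostatic genes the median against all controls was 0.00, with 12 differences above 0. Against naive libraries it was 0.13, with 20 of 25 differences above 0 (5776 of all 11759 genes). Both SNI libraries lay above both naive libraries for 9 members (36.0%, against 8.81% of all genes) and below both for 0 (13.8% of all genes). P2ry12, the ADP receptor that guides microglial processes, had 785 and 1288 FPKM in SNI libraries, 1441 and 1069.7 FPKM in naive libraries and 804 to 1199 FPKM in saline libraries. The difference of P2ry12 was smaller than the gap between the SNI libraries. Olfml3, a secreted glycoprotein enriched in microglia, was the 1 member of the homeostatic list above all 9 controls (4.00%, where 1.52% of all genes were). It had 1301 and 1800.5 FPKM in SNI libraries, 1156 and 1172 FPKM in naive libraries and 590 to 1094 FPKM in saline libraries. Its difference was 0.76 ± 0.36 (SE). Both day 7 CCI libraries were also above all 9 controls for Olfml3, at 1827 and 1789 FPKM.

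Over 22 disease-associated microglia genes the median was -0.16 against all controls and 0.17 against naive libraries. Of these, 3 members lay above all 9 controls (13.6%, where 1.52% of all genes did) and 1 below all of them (4.55%, where 1.56% did). Axl, a receptor for apoptotic-cell ligands, had 21.2 and 32.9 FPKM in SNI libraries, 17.2 and 12.9 FPKM in naive libraries and 5.32 to 16.0 FPKM in saline libraries, a difference of 1.18 ± 0.51 (SE). The day 7 CCI values of Axl, 17.8 and 29.2 FPKM, were also above all 9 controls. Gas6, the ligand of Axl, was likewise above all 9 controls, with 92.5 and 84.8 FPKM in SNI libraries, 62.0 and 76.7 FPKM in naive libraries and 31.2 to 69.1 FPKM in saline libraries, a difference of 0.63 ± 0.47 (SE). Gas6 is counted with the extracellular matrix and secreted growth factor genes below, not among these 3, and was chosen after its values were seen. Besides Axl, the members above the controls were Itgax (CD11c) and the tetraspanin Cd63, also chosen after their values were seen. Itgax had 3.67 and 4.77 FPKM in SNI libraries, 1.505 and 2.67 FPKM in naive libraries and 1.64 to 3.07 FPKM in saline libraries. Cd63 had 259.9 and 266 FPKM in SNI libraries, 239 and 231 FPKM in naive libraries and 122 to 239.5 FPKM in saline libraries. Ccl6, a myeloid chemokine, was the member below all controls, at 66.2 and 75.7 FPKM in SNI libraries, 141 and 85.2 FPKM in naive libraries and 134 to 244 FPKM in saline libraries, a difference of -1.14 ± 0.41 (SE).

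Among 22 genes of the extracellular matrix and secreted growth factors, 3 lay above all 9 controls (13.6%, where 1.52% of all genes did). They were Htra3 and Gas6, given above, and Mmp14, a membrane-bound matrix protease. Mmp14, named after its values were seen, had 23.5 and 25.5 FPKM in SNI libraries, 16.5 and 19.2 FPKM in naive libraries and 6.29 to 19.8 FPKM in saline libraries, a difference of 0.78 ± 0.45 (SE). The list's median was 0.34 against all controls and 0.25 against naive libraries. For other lists the sign turned on the controls used. MHC class II presentation (6 tested genes) had a median of -0.59 against saline and 0.37 against naive libraries, Fc receptors (7 genes) -0.49 against saline and 0.07 against naive libraries, and oxidative phosphorylation (33 genes) -0.46 against saline and 0.07 against naive libraries. Ribosomal protein genes had a median of 0.32 against naive libraries, with 38 of 40 differences above 0 (5776 of all 11759 genes), and of -0.09 against saline libraries.

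**Figure D5:**
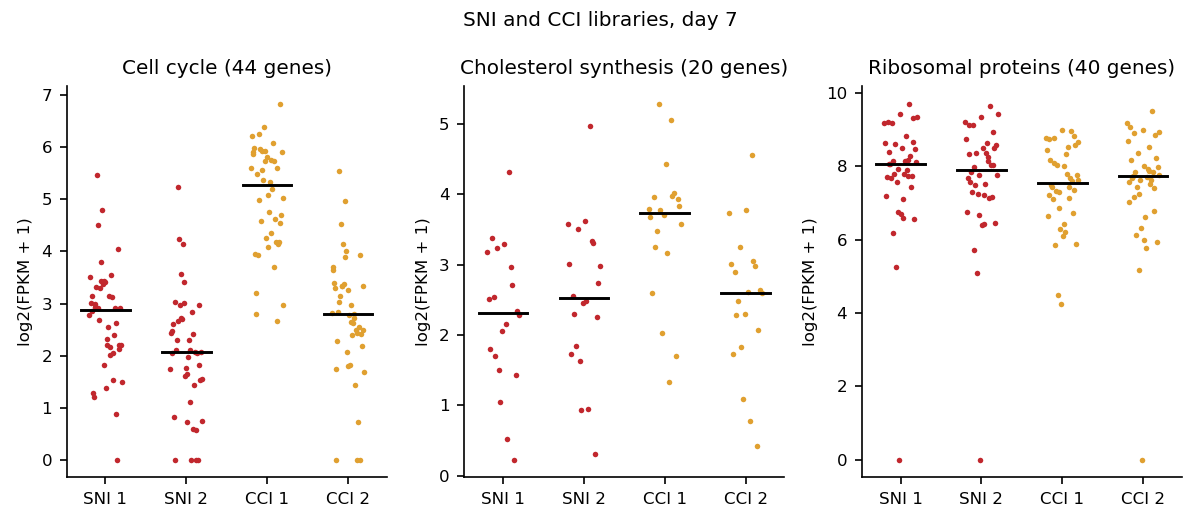
Values of each tested gene of 3 lists, as log2(FPKM + 1), in the SNI (red) and CCI (yellow) libraries of day 7, with the median of the list as a black line. Cell cycle genes are highest in CCI library 1, whose list mean is 5.03, and the means of SNI library 1 (2.72) and CCI library 2 (2.74) are close.

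Between injuries of the same day, SNI and CCI differed by no called gene (0% called, lowest adjusted p = 1, limma), and 129 genes had an unadjusted p under 0.05, of which 2 were higher (0.0170%) and 127 lower (1.08%) in SNI libraries. The median over all genes was -0.15, and only 3219 of the 11759 genes had a difference from CCI above 0. Other differences from CCI, and counts of their signs, are to be read relative to these values. Cell cycle genes had a median of -1.497, 43 of 44 differences were below 0, and both SNI libraries lay below both CCI libraries for 28 members (63.6%, where 26.1% of all genes did). Mki67, the proliferation marker Ki-67, had 5.86 and 2.35 FPKM in SNI libraries, 47.9 and 6.06 FPKM in CCI libraries, and 1.10 and 8.24 FPKM in naive libraries. Plk4, the kinase of centriole duplication, had 1.74 and 0.841 FPKM in SNI libraries and 12.5 and 3.67 FPKM in CCI libraries, a difference of -1.82 ± 0.63 (SE). Ect2, a cytokinesis factor, had 1.42 and 0.787 FPKM in SNI libraries and 11.6 and 3.14 FPKM in CCI libraries, a difference of -1.80 ± 0.62 (SE). CCI library 1 was much higher than library 2 for each of them. Without it the median of the cell cycle list was -0.40, with 36 of 44 differences below 0, where the median of all genes was -0.10, and the differences were -1.06 for Plk4 and -0.99 for Ect2.

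Against the controls, cell cycle genes of SNI libraries had a median difference of 0.22 (0.03 against naive libraries), with 0 members outside the 9 controls. Cholesterol synthesis genes were also lower than in CCI, for 20 of 20 members, with a median of -0.57 and 8 members below both CCI libraries (40.0%, against 26.1%). This rested on CCI library 1: without it the median was -0.07 and 12 of 20 differences were below 0. The level of the list was 2.26 and 2.53 in SNI libraries and 3.53 and 2.51 in CCI libraries. Ribosomal protein genes went the other way: 36 of 40 differences were above 0, the median was 0.34, and 29 members were above both CCI libraries (72.5%, where 4.82% of all genes were). Without CCI library 1 the ribosomal median was 0.21. H2-K1 and Rab20, an endosomal small GTPase, were among the named genes higher than in CCI, with 272 and 370.0 FPKM for H2-K1 in SNI libraries and 158 and 260.2 FPKM in CCI libraries. Rab20 had 9.77 and 14.7 FPKM in SNI libraries and 7.61 and 4.98 FPKM in CCI libraries.

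Against SNT of day 7, 0 genes were called (0%, lowest adjusted p = 0.133, limma), and 530 had an unadjusted p under 0.05, of which 91 were higher (0.774%) and 439 lower (3.73%) in SNI libraries. The SNT libraries differed strongly from each other, with 8466 genes at 1 FPKM or more in library 1 and 10352 in library 2. Cst3 stood at 66554 FPKM in SNT library 1, as high as in saline libraries, and at 16911 FPKM in SNT library 2, near the SNI and naive values. SNT library 1 correlated with the SNI libraries at 0.841 and 0.809, and SNT library 2 at 0.948 and 0.960. Leaving out SNT library 2, or library 1, gave 1006 or 11 called genes. Neuronal markers were at very low levels in SNI libraries, for which Nefh was listed at 0 in both. Over the 9 tested neuronal markers the list level was 0.474 and 0.829 in SNI libraries, 1.26 and 2.00 in SNT libraries and 0.662 and 0.667 in naive libraries, and 0 of 9 differences from SNT were above 0. Without SNT library 2, 4 of 9 were above 0 and the median, otherwise -0.84, was 0. Ckmt1, a mitochondrial creatine kinase, had 0.345 and 0.352 FPKM in SNI libraries and 10.3 and 3.83 FPKM in SNT libraries, a difference of -2.46 ± 0.50 (SE; adjusted p = 0.135, limma). Penk, the precursor of enkephalin peptides, had 0.146 and 0.528 FPKM in SNI libraries and 8.79 and 3.43 FPKM in SNT libraries, a difference of -2.31 ± 0.57 (SE). Without SNT library 2 the differences were -3.07 for Ckmt1 and -2.89 for Penk (adjusted p = 0.00552 and 0.0159, limma), and without SNT library 1 they were -1.84 and -1.74. Both are known as neuronal transcripts, and the part of neuronal RNA in the difference from SNT was not tested.

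Il4i1, a secreted amino acid oxidase, was among the genes named as higher than in SNT. It overlaps Nup62 on the same strand, so how reads were divided between them is uncertain. Il4i1 had 5.49 and 7.53 FPKM in SNI libraries, 0 and 5.97 FPKM in CCI libraries and was listed at 0 in both SNT and both naive libraries, while the highest saline value was 7.91 FPKM. The controls and SNI therefore overlapped for Il4i1, and it was listed at 0 in 7 of the 11 libraries of the control comparison. Nop58, a nucleolar protein of small RNA particles, had 8.58 and 8.77 FPKM in SNI libraries and 32.0 and 29.2 FPKM in SNT libraries, while naive libraries had 7.17 and 12.8 FPKM. The SNI values of Nop58 thus lay within the naive range, and both SNT values above it.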

How the data were processed

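The authors deposited FPKM values for 30 mouse libraries, made with Smart-Seq2 and Nextera XT. The build was mm10 and the tools were featureCounts 1.4.6, DESeq2, Cufflinks 2.2.1 and HISAT2 2.0.5.1, per the submitters' processing notes. Which tool made the FPKM values, the annotation and strand use are not given in the sources used here. The table holds no counts, so depth is unknown. The relative floor is the 5th percentile of nonzero FPKM × transcript length.

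Of 24888 rows, 826 with 281 repeated symbols were left out. A gene was tested if 2 or more of the 30 libraries reached 1 FPKM. On log2(FPKM + 1), limma 3.58.1 (R 4.3.3) with an intensity trend compared SNI with the 9 controls in 1 fit of 23 libraries (14 injury, 9 control), two-sided, with Benjamini-Hochberg adjustment and 15 residual degrees of freedom. It was tested on simulated data. A difference is the SNI mean minus the other group's mean.

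The rule named the 10 lowest p-values per direction among genes averaging 5 FPKM or more in one group and not overlapping, up to 4 members of each of 35 lists (3 FPKM or more on average), and 5 genes per direction between injuries. The text gives some of these, and 1 member of the type I interferon list is counted but not reported here by name. Members and lists were chosen with earlier results of these data known. Positions are from GENCODE vM21, promoters from RefSeq. Figures were drawn with Python 3.11.15 and matplotlib 3.10.9.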

Additional observations from a re-analysis of the deposited data

Results flagged for a closer look

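Among 84 sets of values examined over the 9 controls (named genes on the log2 scale and list levels), 5 held a library whose gap to its nearest neighbour exceeded the critical share of the whole range in Dixon's test. Chance flags about 1 in 20 such sets. Ifi27l2a, an interferon-induced gene, was highest in escalating-regimen saline library 9, at 115.4 FPKM, and the neuronal marker level was highest in the same library, at 2.517. That library is the one that brought Ifi27l2a of the controls up to the SNI values. Tmem8c was lowest in escalating-regimen saline library 7, at 5.495 FPKM, as was Mmp14, at 6.288 FPKM. Gas6 was lowest in fixed-regimen saline library 5, at 31.2 FPKM.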

How the results depend on the processing

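Against the 9 controls, 0 genes were called in the main comparison and under most alternatives (limma). A pseudocount of 5 gave 1 (Cfb, adjusted p = 0.0276), testing all genes with no filter 12, none of them among the 11759, the saline controls alone 44, and array quality weights 25, of which 14 were higher, among them Cfb, Htra3, Npnt, Chst2, Ifit1 and Adora1. Leaving out 1 library gave 0 to 2 calls, and the 2 (Dalrd3 and Snord8) came without SNI library 1, where the lone SNI library is assumed to vary like the other groups. Against CCI, no filter gave 6 calls and leaving out 1 library 0 to 1, the 1 without CCI library 1. Against SNT, a pseudocount of 5 gave 13, no filter 31, and leaving out the 3 libraries with the fewest genes 11. Leaving out 1 library gave 0 to 1006, with 1 without escalating-regimen saline library 9, 11 without SNT library 1 and 1006 without SNT library 2. The cause was not tested in any of these.

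The type I interferon median was 0.29 with a pseudocount of 5 and 0.83 after rescaling to TPM, and its values under all other alternatives lay within 1 SD of the level between libraries. It was 0.51 to 0.63 with 1 library left out, and 0.52 without SNI library 1. Rescaling to TPM moved the median of all genes to 0.17 against controls and 0.23 against SNT, and quantile scaling moved that against CCI to 0.02. Of 23 process lists, 6 changed the sign of their median against controls under TPM and 4 under quantile scaling, among them the homeostatic, pain and ribosomal lists in both. Against CCI, under all 3 scalings the cell cycle median lay between -1.66 and -1.32, the cholesterol median between -0.64 and -0.38 and the ribosomal median between 0.33 and 0.54. Leaving out CCI library 1, computed for the lists after the data were seen, gave -0.40, -0.07 and 0.21.

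Replicate numbers are shared between the groups by label only. Deviations of same-numbered SNI and naive libraries correlated at -0.33, those of SNI and CCI at 0.09 and of SNI and SNT at 0.22. With replicate number as a block, which leaves the naive libraries as controls, 0 genes were called, and 0 with the SNI numbers crossed, a pairing added after the data were seen. Under the block, the crossed block and the naive controls alone, the difference of B2m was 0.24, of C1qa 0.21, of Tyrobp 0.0854 and of Tlr9 0.0470, each of opposite sign to that against all controls. Over the genes whose differences are given, 1678 alternative values kept direction and side of the threshold, 44 passed it and 12 changed sign.

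With no counts in the table, no counting interval was computed. With 2 SNI libraries, precision is limited by the number of libraries. A fit of SNI and the 9 controls alone cannot give the differences from CCI and SNT.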
